A study of Mus musculus with 2 samples.

Results

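The family of miR-148 and miR-152 was followed through microRNA sequencing of mouse adrenal glands. Its 3 members, Mir148a, Mir148b and Mir152, were taken by their symbols in the GENCODE M21 annotation from the 2202 miRNA genes in the deposited count tables, and all 3 were found. The samples were adrenal glands of male B6CASTF1/J mice, an F1 cross of a C57BL/6 and a CAST/EiJ parent, aged 10 days. The series has 1 group of 2 libraries, biological replicates 2 and 1, which the labels assign to different males with a common donor record. The animals carried no treatment or engineered allele that the labels name, and whether glands were pooled is not stated. With no other condition in the series, the members were compared with one another and between the libraries.

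A microRNA (miRNA) is a short RNA that guides an Argonaute protein to messenger RNAs, mainly through its bases 2 to 8, the seed. Members of a family share the seed and so can pair with the same sites, although they are made from separate genes. The family has been reported to repress Dnmt1, the maintenance DNA methyltransferase that copies methylation onto newly made DNA strands. Mir148a is known as an abundant miRNA of liver, where it has been reported to repress the cholesterol exporter Abca1. The adrenal cortex makes its steroids from cholesterol, and the medulla is made of chromaffin cells, which are neuroendocrine.

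The mature sequences of the 3' arms are shown because they carry both the shared seed and the bases by which a read can be told to come from one gene and not another. They are from RefSeq on GRCm38.p6, the seed is in capitals, and all 3 genes had an entry with both arms.
miR-148a-3p: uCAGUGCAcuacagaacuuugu
miR-148b-3p: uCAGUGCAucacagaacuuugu
miR-152-3p: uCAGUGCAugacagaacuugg
Counted from the 5' end, miR-148a-3p and miR-148b-3p differ at 2 positions of 22, C9U and U10C. From miR-148a-3p to miR-152-3p the changes are C9U, U10G and U20G over the 21 bases compared. From miR-148b-3p to miR-152-3p they are C10G and U20G. All of these lie outside the seed. Of 1679 mature mouse sequences in the RefSeq table, these 3 alone had CAGUGCA at bases 2 to 8. A further 7, among them miR-130a-3p, miR-130b-3p and miR-301a-3p, had AGUGCA at bases 2 to 7, the same letters set 1 base closer to the 5' end, and so have a different seed.

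The 5' arms are shown because the count of a gene holds the reads of both arms without separating them.
miR-148a-5p: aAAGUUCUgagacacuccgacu
miR-148b-5p: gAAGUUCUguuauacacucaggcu
miR-152-5p: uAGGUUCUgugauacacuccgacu
Mir148a and Mir148b share the seed AAGUUCU on this arm, and that of Mir152 is AGGUUCU. No mature sequence of the 3 genes occurred inside any other hairpin of the table. The longest run of bases shared by 2 member hairpins was 15, between Mir148a and Mir148b, and outside the family it was 12. A read that starts at the first base of the 3' arm is unique to Mir148a among the hairpins from 9 bases on, and to Mir148b or Mir152 from 10. The files do not say how many mismatches the alignment allowed, so how far reads of Mir148a and Mir148b could be exchanged was not tested.

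The family is spread over 3 chromosomes of the mm10 build. Mir148a (ENSMUSG00000065505.1) lies between genes at chr6:51269812-51269910 on the minus strand, 162760 bp from Nfe2l3, the nearest protein-coding gene. Mir148b (ENSMUSG00000065560.1) lies at chr15:103285125-103285221 on the plus strand, in intron 1 of all 4 annotated transcripts of Copz1. Mir152 (ENSMUSG00000065515.1) lies at chr11:96850393-96850465 on the plus strand, in intron 1 of 3 of the 5 transcripts of Copz2. Copz1 and Copz2 are paralogs that encode zeta subunits of the coatomer, the coat of vesicles that travel between Golgi and endoplasmic reticulum. The nearest other miRNA gene was 65234 bp away from Mir148b and farther from the other two, so no member is part of a miRNA cluster. No annotated gene lies opposite any of them.

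The seed match of the family is TGCACTG, and the mouse Dnmt1 transcript with the longest 3' UTR held it 1 time. The windows around the matches in Dnmt1 and Abca1 are shown to set reported targets beside the seed, with the match in capitals and written 5' to 3' on the strand of the gene.
Dnmt1: cccagagccccacgTGCACTGatgt
Abca1, first site: gcgaggtcttccttTGCACTGtgtc
Abca1, second site: aatggatctattttTGCACTGgaat
The Dnmt1 window lies at chr9:20907488-20907512 on the minus strand, and its match begins at base 23 of a 3' UTR of 312 bases. Those of Abca1 lie at chr4:53033879-53033903 and chr4:53030970-53030994 on the minus strand, with matches at bases 54 and 2963 of 3156. In Dnmt1 the base after the match was A, the base that completes the longest class of seed site. The de novo methyltransferase genes Dnmt3a and Dnmt3b had no TGCACTG in 3' UTRs of 6696 and 1331 bases. Only the sense strand of the GENCODE M21 transcripts was searched, with the longest 3' UTR of each gene, and 12.7% of 21011 genes held the motif. A match is a run of letters, and messenger RNA was not measured in this series.

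Replicate 2 held 3080062 reads on the genes' own strand and replicate 1 held 2843734, and CPM values scale counts to a common total of these. Taking 3 counts as the limit, a gene with 0 reads could stand at no more than 0.974 CPM in replicate 2 and 1.05 CPM in replicate 1. Intervals and this limit cover the counting error of reads only. The files record no molecular identifiers, so amplified copies of a molecule would count as separate reads. Lists of miRNAs were used to check the tissue. The neuroendocrine genes Mir375, Mir7-1, Mir7-2 and Mir7b were all detected, at 37795 CPM together in replicate 2 and 39914 CPM in replicate 1. Most of it was Mir375, at 34383 CPM in replicate 2 and 34145 CPM in replicate 1. Mir7-1, Mir7-2 and Mir7b were lower in replicate 2, with log2 ratios of replicate 2 over replicate 1 of -0.67, -1.19 and -0.76. The 4 liver genes, Mir122, Mir192, Mir194-1 and Mir194-2, together held 98261 CPM in replicate 2 and 29676 CPM in replicate 1, nearly all of it Mir122, the main miRNA of hepatocytes. The 3 pancreas genes Mir216a, Mir216b and Mir217 together had 2.92 CPM in replicate 2 and 2.46 CPM in replicate 1. Of 6 striated muscle genes 2 reached 1 CPM in each library, with Mir133a-2 at 0 in both. The list held 3311 CPM in replicate 2 and 921 CPM in replicate 1. Of this Mir206 alone made up 3305 CPM in replicate 2 and 919 CPM in replicate 1. How the counting treated reads that fit several genes is not stated. The low counts of Mir1a-1, Mir1a-2, Mir133a-1 and Mir133a-2 are therefore uncertain. The 4 leukocyte genes had 1547 CPM in replicate 2 and 1044 CPM in replicate 1, a difference carried mostly by Mir150, at 786 CPM in replicate 2 and 292 CPM in replicate 1. The endothelial gene Mir126a had 45250 CPM in replicate 2 and 84262 CPM in replicate 1. In such bulk tissue, fewer cells of a type and less RNA per cell cannot be told apart.

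All 3 members were present in both libraries, and Mir148a was the highest member in each. Mir148a had 1848 reads in replicate 2, or 600.0 CPM (95% exact interval 573 to 628), and 3459 reads in replicate 1, or 1216 CPM (1176 to 1258). It ranked 114 of the 2202 genes in replicate 2 and 77 in replicate 1. Mir152 had 1085 reads in replicate 2, or 352 CPM (332 to 374), and 1115 reads in replicate 1, or 392 CPM (369 to 416). Its rank was 136 in replicate 2 and 130 in replicate 1. Mir148b had 629 reads in replicate 2, or 204 CPM (189 to 221), and 452 reads in replicate 1, or 159 CPM (145 to 174). The libraries thus differed in Mir148a by more than the counting intervals, with replicate 1 the higher, and in Mir148b with replicate 2 the higher, while the intervals of Mir152 overlapped. Mir148b ranked 163 in replicate 2 and 181 in replicate 1.

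**Figure D1:**
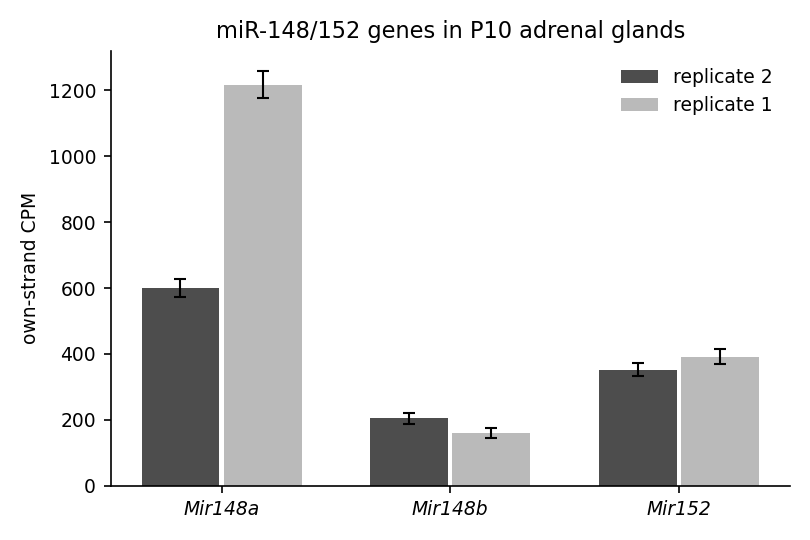
Own-strand CPM of each member (y axis) in replicate 2 (dark bars, left) and replicate 1 (light bars, right), with 95% exact intervals that cover counting error only. Mir148a stands at 600.0 CPM in replicate 2 and 1216 CPM in replicate 1, and it is the tallest pair of bars in both libraries.

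The order Mir148a, Mir152, Mir148b was the same in both libraries, and the counting intervals of neighbours in that order did not overlap within either. As means over the libraries, Mir148a had 908 ± 436 CPM (SD, n = 2), Mir152 372 ± 28.2 CPM and Mir148b 182 ± 32.0 CPM. The gap between Mir152 and Mir148b was larger than either SD. The gap between Mir148a and Mir152 was 536 CPM, beside an SD of 436 CPM for Mir148a, the member that differed most between the libraries. A read of a short RNA covers the whole mature molecule, 21 to 24 bases over both arms of these genes, so CPM was compared without division by gene length. Divided by the annotated gene length of 99, 73 and 97 bases for Mir148a, Mir152 and Mir148b, the order was unchanged. The log2 ratio of Mir148a over Mir152 then averaged 0.76 in place of 1.20, and that of Mir152 over Mir148b 1.45 in place of 1.04.

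Together the members held 0.116% of the assigned reads in replicate 2 (95% exact interval 0.112 to 0.120) and 0.177% in replicate 1 (0.172 to 0.182), a mean of 0.146% ± 0.0432 (SD, n = 2). The sum of the member genes, both arms included, was 1156 CPM in replicate 2 and 1767 CPM in replicate 1. It came from 3562 reads in replicate 2 and 5026 in replicate 1, and reads with the shared seed were not counted apart. Mir148a carried the difference. Without it the sum of Mir148b and Mir152 was 556 CPM in replicate 2 and 551 CPM in replicate 1, a log2 ratio of 0.01, against -0.61 for the whole family (interval -0.67 to -0.55).

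The make-up of the family therefore differed between the libraries by more than counting error. Mir148a made up 51.9% of the family's reads in replicate 2 (50.2 to 53.5) and 68.8% in replicate 1 (67.5 to 70.1). Mir152 made up 30.5% in replicate 2 (29.0 to 32.0) and 22.2% in replicate 1 (21.04 to 23.36). Mir148b made up 17.7% in replicate 2 (16.4 to 19.0) and 8.99% in replicate 1 (8.22 to 9.82). None of the 3 pairs of intervals overlapped. The shares within a library sum to the whole family, so the 3 differences are not separate results. Mir152 had the larger share in replicate 2, although its level was 352 CPM there and 392 CPM in replicate 1. These shares do not depend on the total of the library. For each read of Mir148b there were 2.94 reads of Mir148a in replicate 2 (2.68 to 3.22) and 7.65 in replicate 1 (6.94 to 8.46). For each read of Mir152 there were 1.70 of Mir148a in replicate 2 (1.58 to 1.84) and 3.10 in replicate 1 (2.90 to 3.32). Between the genes within Copz2 and Copz1 there were 1.72 reads of Mir152 for each of Mir148b in replicate 2 (1.56 to 1.91) and 2.47 in replicate 1 (2.21 to 2.76).

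**Figure D2:**
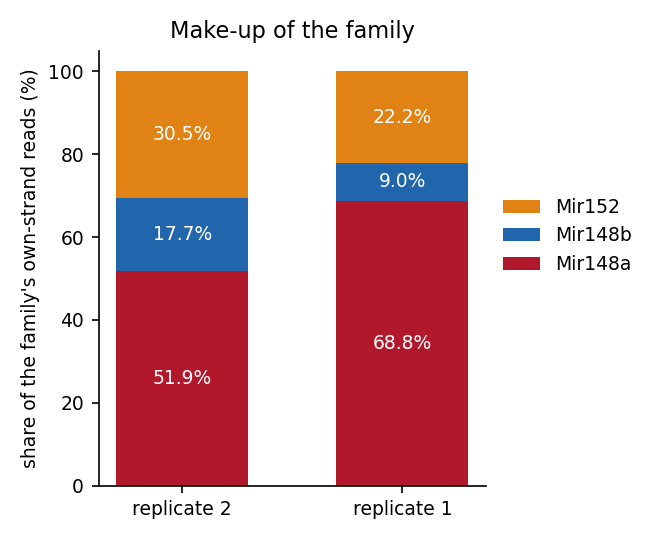
Share of the family's own-strand reads (y axis, percent) taken by each member in replicate 2 (left) and replicate 1 (right). Mir148a takes 51.9% in replicate 2 and 68.8% in replicate 1, and Mir148b and Mir152 each take a larger share in replicate 2. The shares within a library sum to the whole family, so a larger share need not mean a higher level.

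Between the libraries the members went different ways. The log2 ratio of replicate 2 over replicate 1 was -1.02 for Mir148a (95% exact interval -1.10 to -0.94), a level 0.493 times that of replicate 1. It was 0.36 for Mir148b (0.18 to 0.54) and -0.15 for Mir152 (-0.28 to -0.03). In a two-sided exact binomial test, adjusted by Benjamini-Hochberg over the 444 genes with at least 10 reads, the adjusted p was 6.91e-139 for Mir148a, 1.05e-04 for Mir148b and 0.0222 for Mir152. Scaled to the assigned totals, Mir148a and Mir152 were thus lower in replicate 2, and Mir148b higher, by more than counting error. For Mir152 this depended on the scaling, as described below. The same test called 59.0% of the tested genes, 28.6% higher and 30.4% lower in replicate 2, so a call by itself does not set a member apart from other miRNAs. The test compares 1 library with another, not conditions.

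The size of the ratio placed the members apart from each other. Of the 444 tested genes, 97 (21.8%) had a ratio at least as far from 0 as Mir148a, 293 (66.0%) one at least as far as Mir148b, and 373 (84.0%) one at least as far as Mir152. Mir148a had a ratio at or above that of 11.0% of the tested genes, Mir152 at or above 37.8% and Mir148b at or above 63.7%. The median absolute log2 ratio of all tested genes was 0.56, above the ratios of Mir148b and Mir152 and below that of Mir148a. The edgeR exact negative binomial test allows for the spread between the libraries, a biological coefficient of variation of 0.393 estimated from the same 2 libraries. It gave an adjusted p of 1 for all 3 members, with unadjusted p of 0.218 for Mir148a, 0.663 for Mir148b and 0.852 for Mir152. By that test 2 of the 444 genes (0.450%) were called and 24 had an unadjusted p under 0.05. With 1 library on each side, the differences between these libraries, pooled over all tested genes, set the spread each gene is judged against. This test therefore calls few genes by its construction. It places the ratio of a member among those of the tested genes, and cannot show whether the member differs beyond replicate spread.

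**Figure D3:**
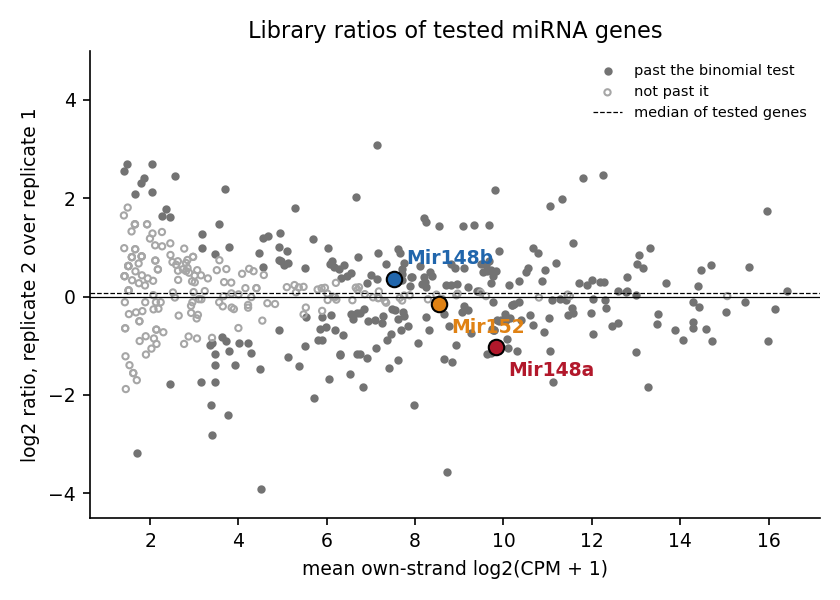
Mean own-strand log2(CPM + 1) over both libraries (x axis) and log2 ratio of replicate 2 over replicate 1 (y axis) of the 444 tested miRNA genes, filled where the exact binomial test called them, with the members in colour and a dashed line at the median of the tested genes. Mir148a lies at -1.02, with 11.0% of the tested genes at or below it, Mir152 at -0.15 and Mir148b at 0.36.

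The call of Mir152 rested on how the libraries were scaled. The median log2 ratio of all tested genes was 0.07, and relative to it Mir148a stood at -1.09, Mir148b at 0.29 and Mir152 at -0.23. Mir122, the liver miRNA, had a log2 ratio of 1.73 and took 97850 CPM in replicate 2 and 29424 CPM in replicate 1. With Mir122 left out of the totals, the median of all genes stood at 0.17, Mir148a at -0.91, Mir148b at 0.47 and Mir152 at -0.05 with an adjusted p of 0.517 in the binomial test. With DESeq2 size factors Mir152 stood at -0.13 with an adjusted p of 0.0653. Mir148a and Mir148b passed the binomial test under each scaling that was tried. The liver list was higher in replicate 2 and Mir148a was lower there. Whether liver tissue contributed reads of Mir148a to either library was not tested.

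**Figure D4:**
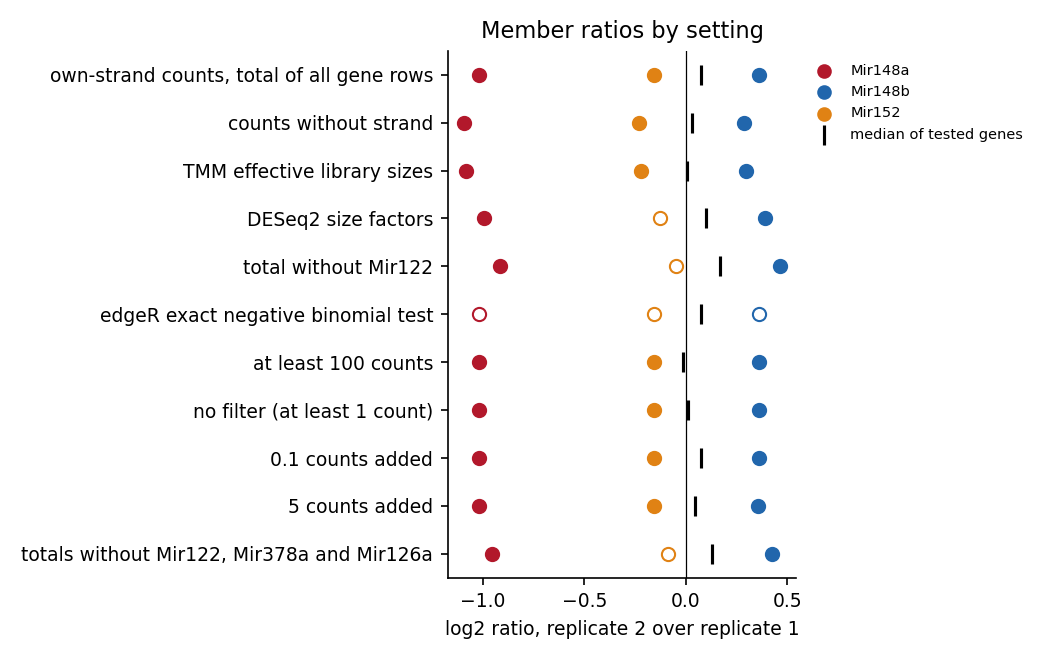
Log2 ratio of replicate 2 over replicate 1 (x axis) of each member under each setting (rows), filled where the adjusted p was under 0.05 and open where it was not, with a black tick at the median of the tested genes. Mir148a runs from -1.09 to -0.91 and Mir148b from 0.29 to 0.47, while Mir152 runs from -0.23 to -0.05 and is open in 4 rows. In the row of the edgeR exact negative binomial test every member is open.

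Counting by strand hardly touched the members. Without strand, Mir148a had 1849 reads in replicate 2 and 3459 in replicate 1, and the opposite strand held 1 read in replicate 2 and 0 in replicate 1. For Mir148b and Mir152 the counts with and without strand were equal in each library, with 0 reads on the opposite strand. The totals without strand were smaller, 2566634 reads in replicate 2 and 2248772 in replicate 1, because reads of overlapping genes are left out there. The CPM of each member was therefore higher on that scale. In replicate 2 it was 720 CPM for Mir148a, 423 CPM for Mir152 and 245 CPM for Mir148b. In replicate 1 it was 1538 CPM for Mir148a, 496 CPM for Mir152 and 201 CPM for Mir148b.

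The tested genes most like each member were found by their distance in mean log2(CPM + 1) and log2 ratio, over 2 libraries only. Nearest to Mir148a were Mir376c (mean 836 CPM, log2 ratio -1.15, distance 0.18), Mir369 (793 CPM, -1.17, 0.25) and Mir497 (1090.0 CPM, -1.04, 0.26). Mir376c and Mir369 belong to the imprinted Dlk1-Dio3 region. Nearest to Mir152 were Mir142, a leukocyte miRNA (mean 379 CPM, log2 ratio -0.09, distance 0.07), Mir25 (389 CPM, -0.05, 0.12) and Mir125b-1 (357 CPM, 0.04, 0.20). Nearest to Mir148b were Mir350 (mean 191 CPM, log2 ratio 0.30, distance 0.09), Mir138-1 (209 CPM, 0.34, 0.20) and Mir700 (208 CPM, 0.46, 0.21). No gene was among the 3 nearest of more than 1 member. Whether mature sequences of these nearest genes also occur in other hairpins was not checked, so their levels may leave out shared reads.

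Other miRNAs have been reported, many of them in human cells, to repress DNA methyltransferases, and their levels give the family's a setting. The list held Mir29a, Mir29b-1, Mir29b-2 and Mir29c, reported for Dnmt3a and Dnmt3b, Mir101a, Mir101b and Mir143, reported for Dnmt3a, and Mir126a, Mir140, Mir185 and Mir342, reported for Dnmt1. All 11 genes were tested. In replicate 2, 2 of them were higher and 7 lower by the exact binomial test, and 2 did not pass it. Their median log2 ratio was -0.46, against 0.07 over all tested genes, and of the members Mir148a lay below this median and Mir152 and Mir148b above it. The shares called over all tested genes, 28.6% higher and 30.4% lower, are the background of these counts. That background includes genes with few reads, which the test calls less often. Of the 285 genes with at least 100 reads over both libraries, 229 (80.4%) were called, 110 higher and 119 lower. The median log2 ratio of those genes was -0.01.

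Among the genes reported for Dnmt1, Mir126a of the endothelium stood above the whole family in both libraries. Its 45250 CPM in replicate 2 and 84262 CPM in replicate 1, a log2 ratio of -0.90, were above the sum of the 3 members, 1156 CPM in replicate 2 and 1767 CPM in replicate 1. Mir140, known from cartilage, had 8251 CPM in replicate 2 and 1493 CPM in replicate 1, a log2 ratio of 2.47 in the other direction from Mir148a. Mir342 had 1802 CPM in replicate 2 and 1204 CPM in replicate 1, a log2 ratio of 0.58. Mir185 had 66.2 CPM in replicate 2 and 782 CPM in replicate 1, and at -3.56 it was the 1 gene of the list that also passed the edgeR exact negative binomial test, with an adjusted p of 0.0296. Among the genes reported for Dnmt3a or Dnmt3b, Mir143 had 30258 CPM in replicate 2 and 37387 CPM in replicate 1, a log2 ratio of -0.31. Mir29a had 788 CPM in replicate 2 and 1112 CPM in replicate 1 (-0.50), and Mir29c 158 CPM in replicate 2 and 253 CPM in replicate 1 (-0.68). Mir101b had 670 CPM in replicate 2 and 1069 CPM in replicate 1 (-0.67), and Mir101a 164 CPM in replicate 2 and 225 CPM in replicate 1 (-0.46). Mir29b-1 and Mir29b-2, which share a mature sequence, had 45 and 19 reads in replicate 2 and 34 and 24 in replicate 1. How the counting treated reads of the shared sequence is not stated, so their levels are uncertain. Mir126a overlaps the annotated gene Mir126b on the other strand.

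**Figure D5:**
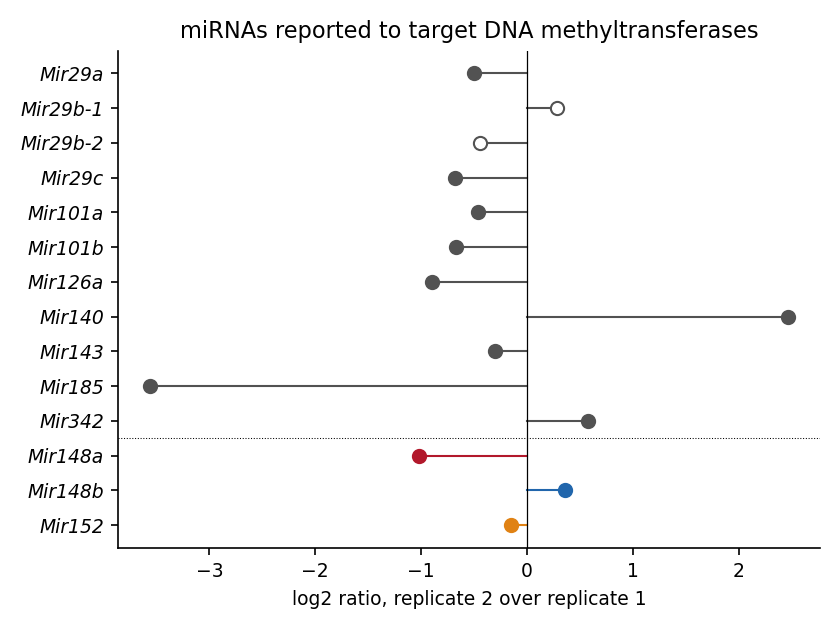
Log2 ratio of replicate 2 over replicate 1 (x axis) of the 11 listed miRNA genes reported to target DNA methyltransferases (above the dotted line) and of the 3 family members (below it), filled where the exact binomial test called the gene. Mir140 at 2.47 and Mir185 at -3.56 lie farthest out, and Mir148a at -1.02 lies beyond Mir148b and Mir152.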

How the data were processed

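MicroRNA sequencing libraries were made from total RNA of adrenal glands, selected for short fragments, per the labels. Raw read counts for each miRNA gene were deposited by the authors, who used mm10 and GENCODE M21 according to the file descriptions. Which aligner and counter they ran is not given in the sources used here. The tables have 3 count columns, read from their values as without strand, own strand and opposite strand, and 4 rows of reads that were unmapped (32.0% in replicate 2, 26.4% in replicate 1), multiply mapped (25.9% in replicate 2, 27.5% in replicate 1), in no gene (7.54% in replicate 2, 8.22% in replicate 1) or ambiguous (0% on the own strand). These rows stayed out of totals. Own-strand counts were used throughout, and 441 genes reached 1 CPM in each library.

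The members, lists and tests were chosen with earlier results of these data known. Ratios were taken on the log2 scale after adding 0.5 counts, and genes with at least 10 reads over both libraries were tested by the exact two-sided binomial test at an adjusted threshold of 0.05. Intervals are 95% Clopper-Pearson. The binomial step was tested on simulated Poisson counts. These hold no spread beyond counting error, so that check does not bear on the spread between replicates. Alternatives were counts without strand, TMM and DESeq2 factors, Mir122 left out, the edgeR exact negative binomial test, other count minimums and pseudocounts, and single replicates. Named genes were the members, the list of miRNAs reported to target DNA methyltransferases, genes with the same seed, and the 3 tested genes nearest to each member. The labels number the libraries as biological replicates. Their descriptions name different males. Python 3.11.15 was used with scipy 1.17.1, numpy 2.4.6, matplotlib 3.10.9 and pandas 2.3.3, and edgeR 4.0.16 and DESeq2 1.42.0 under R 4.3.3.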

Additional observations from a re-analysis of the deposited data

How the results depend on the processing

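Of 97 alternatives, 84 left a result in its direction and on its side of the threshold, or within the SD between libraries, or for counts within 1.5 times, and no result reversed. Some of these 84 were fixed in advance, or nearly so. Pseudocounts do not enter the binomial test, so its adjusted p could not change with them. Member counts were nearly the same with and without strand, so the make-up of the family could hardly move. Single replicates stay within the SD by construction. They gave 600.0 to 1216 CPM for Mir148a, 159 to 204 CPM for Mir148b, 352 to 392 CPM for Mir152, and 0.116% to 0.177% for the family. Without strand the mean levels were 223 CPM for Mir148b and 459 CPM for Mir152, against 182 and 372 CPM, since the totals are smaller there. The edgeR exact negative binomial test keeps the ratios of -1.02, 0.36 and -0.15 for Mir148a, Mir148b and Mir152 but called none of them (adjusted p of 1 each). Its spread comes from the same 2 libraries it compares, so it calls few genes by its construction and the lost calls say nothing of stability. Over all genes it called 2, of which 0 were higher in replicate 2, against 262 and 127 by the binomial test, and of the list of miRNAs reported to target DNA methyltransferases it called 1, with 0 higher, against 9 and 2. The adjusted binomial p of Mir152 ranged from 4.71e-04 to 0.517 over the alternatives. It was lost with DESeq2 size factors (-0.13), without Mir122 (-0.049), and without Mir122, Mir378a and Mir126a (-0.089, chosen after seeing the data), which change only the scale. With 452 to 3459 reads per member and library, counting error is smaller than the difference between the libraries for Mir148a.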
